A study of Danio rerio with 14 samples.

Results

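H2A.Z levels after the flame retardant TDCIPP were compared directly with levels after 5-AzaC in zebrafish embryos, with the DMSO control left out of the difference. The comparison covers 26161 pairs of peaks. Each pair is 1 peak from the authors' TDCIPP table (28988 peaks) and 1 from their 5-AzaC table (29854 peaks), matched one to one as each other's best overlap of at least 1 bp on the same sequence. Of these pairs, 5295 have the same start and end in both tables, and the median, the 2-fold counts, the approximate test and the contrasts by sequence, level and width were repeated on them.

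H2A.Z is a variant of histone H2A that exchange complexes place into nucleosomes, above all beside gene starts and at regulatory DNA. In early zebrafish embryos, nucleosomes that carry H2A.Z mark DNA that lacks methylation, and methylated DNA is largely without them. TDCIPP is a chlorinated organophosphate used as a flame retardant, and 5-AzaC (5-azacytidine) is a nucleoside analogue that is incorporated in place of cytidine and lowers DNA methylation. A direct comparison asks where 2 exposures, each studied against the same solvent control, left different amounts of H2A.Z.

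All groups were AB/Tuebingen wild-type embryos at 6 hours after fertilization, when gastrulation has begun, kept at around 50 per well of a 6-well plate. The TDCIPP group (2 samples) was in 3.12 µM TDCIPP from the 2-cell stage at 0.75 hours. The 5-AzaC group (3 samples) was in 100 µM 5-AzaC from the 1-cell stage, so the groups differ in dose and in the start of exposure as well as in compound. The control group (3 samples) was in 0.1% DMSO. Each library was made from around 10000 cells of pooled whole embryos, so cell types are mixed. The assay was CUT&Tag, where a transposase brought in by an antibody, here polyclonal and against H2A.Z, cuts nearby DNA and adds sequencing adapters. The labels do not say whether samples of a group came from separate clutches. The other 6 of the 14 samples carried extra H2A.Z and were not analysed here.

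The deposited tables hold 1 log2 level per group and peak and no value per sample, so no SD or n can be given for a level. A level is read as the log2 of a mean normalised read count. Of the 5295 pairs with identical ends, 5294 had an equal DMSO level in both tables, and the other had a gap of 0.34, so the TDCIPP and 5-AzaC levels were treated as being on 1 scale. Differences below are log2 TDCIPP minus log2 5-AzaC. A positive value means more H2A.Z after TDCIPP, and a difference of 1 is 2-fold.

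H2A.Z was close to equal after both compounds at most peaks, with a long tail of peaks that were higher after TDCIPP. The median level was 3.31 after TDCIPP and 3.11 after 5-AzaC, and both were below the DMSO median of 3.82. The median difference was 0.08, with quartiles of -0.28 and 0.56. The 1st and 99th percentiles were -1.49 and 2.24. TDCIPP was at least 2-fold higher at 3490 pairs (13.3%), and 5-AzaC at 883 (3.38%). At a limit of 4-fold the counts were 564 and 78. Levels after both compounds followed each other across peaks, with a Spearman rho of 0.77 and a Pearson r of 0.79 over the 26161 pairs. This is a description, since peaks of the same libraries are not independent.

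The excess after TDCIPP was smaller among pairs with identical ends. Their median difference was 0.04 (quartiles -0.29 and 0.41), and 463 pairs (8.74%) were at least 2-fold higher after TDCIPP against 203 (3.83%) after 5-AzaC. Where ends differed, the compound with the wider peak tended to have the higher level: the median was 0.36 at the 9095 pairs with the wider TDCIPP peak and -0.09 at the 11741 pairs with the wider 5-AzaC peak. The same DMSO libraries were measured in both intervals of a pair, which shows how much the interval alone moves a DMSO level. A treated level may move by another amount. The DMSO level moved by more than 0.5 between the intervals in 648 pairs (2.48%). Subtracting this shift from each pair left medians of 0.29 and -0.01 in those groups, and 3381 pairs at least 2-fold higher after TDCIPP and 680 after 5-AzaC. Dividing linear levels by interval width instead gave medians of 0.15 and 0.14, so the gap between those groups depends on the correction.

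**Figure D1:**
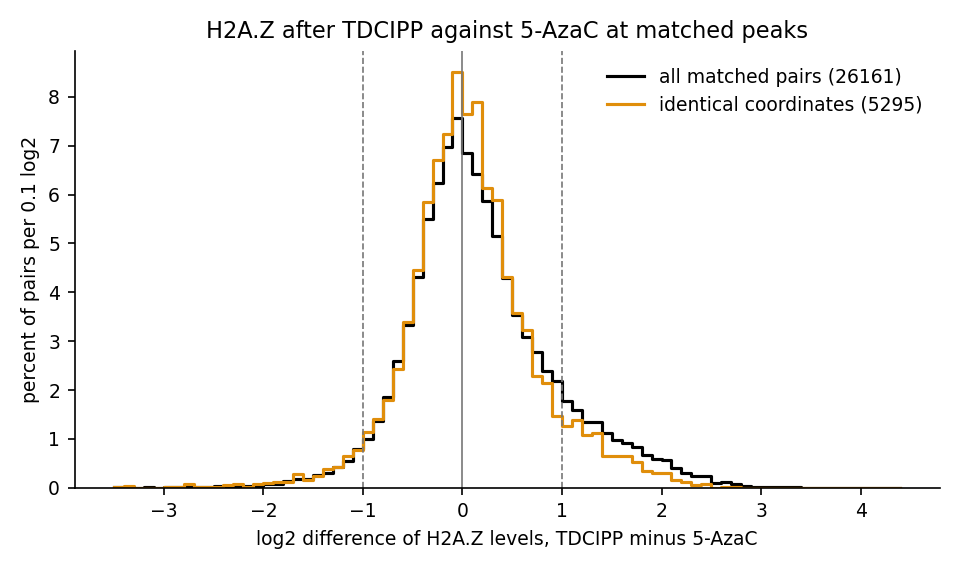
Percent of pairs in each 0.1-wide bin of the log2 difference in H2A.Z level, TDCIPP minus 5-AzaC, for all 26161 matched pairs (black) and the 5295 with identical coordinates (orange). Dashed lines mark a 2-fold difference; 13.3% of all pairs lie past the right line and 3.38% past the left, and the right tail is thinner among identical coordinates, at 8.74%.

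The size of the excess depends on how the groups are scaled to each other. Summed over the matched peaks, the linear TDCIPP signal was 1.17 times the 5-AzaC signal, with means of 15.1 and 12.9 normalised reads per peak over 23.3 and 23.8 Mb. Setting both sums equal shifts each difference by 0.22 and turns the median to -0.14. The counts past 2-fold then become 2503 higher after TDCIPP and 1596 higher after 5-AzaC, so that the share of 2-fold pairs with TDCIPP higher goes from 79.8% to 61.1%. With the median set to 0 the share is 74.0%. Such a shift moves the median of every set by the same amount and leaves the gaps between medians as they are, but it changes 2-fold counts and shares. Set medians below are as deposited and are to be read against the median of 0.08 over all pairs.

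Precision was limited by reads at weak peaks and by the spread between libraries at all of them. Low TDCIPP levels fell on steps that correspond to whole reads worth 0.372 and 0.396 normalised reads in the 2 libraries. The lowest level, -1.38, was held by 22 peaks and equals the value of 1 read in each. It may be a floor that also holds peaks with fewer reads. Steps were not examined for 5-AzaC, where the lowest level, -1.45, stood in for 1 read. From such counts, the counting error of a difference had a median of 0.27, and ranged from 0.42 in the weakest of 5 equal groups of mean treated level to 0.17 in the strongest. An estimate of the full error was derived from the deposited p-values of each compound against DMSO. It counts the DMSO error 2 times, which makes it large, but only 71.1% of the 5-AzaC and 64.6% of the TDCIPP errors were a peak's own. The others were medians of peaks of like level, which can be too small for a single pair. This estimated error had a median of 0.83, from 1.18 in the weakest group to 0.57 in the strongest. Of the 3490 pairs higher after TDCIPP, 99.4% exceeded 2 counting errors and 37.1% exceeded 2 estimated errors. Of the 883 pairs higher after 5-AzaC, 92.3% and 9.85% did. Most 2-fold differences at a single pair were therefore within 2 estimated errors.

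An approximate test, which divides each difference by its estimated error and adjusts by Benjamini-Hochberg over all 26161 pairs, called 133 pairs higher after TDCIPP (0.508%) and 2 higher after 5-AzaC (0.00764%). At an unadjusted p under 0.05 there were 1369 and 97. The first count rests on the error and on the pairs used. It was 108 with the larger of a pair's own error and that of its level, and 1074 with the error of TDCIPP minus DMSO alone. With the main error, it was 4 when only pairs with identical ends were tested. The 133 differences ran from 1.58 to 4.29 with a median of 2.11. Their H2A.Z was high after TDCIPP, with a median level of 7.32 against 5.18 after 5-AzaC and 5.85 in DMSO. The test uses both treated levels, and its error is smaller at strong peaks, so high levels follow in part from the selection. Of the 133, 6 had identical ends, whereas 20.2% of all pairs did. Another of the 133 lay within 10 kb at 109 of them. A share over all pairs for such closeness is not given here, so that count has no background. The clearest call was at a peak of chromosome 15 from 9672270 to 9673251 (to 9673431 in the TDCIPP table). It had a level of 7.56 after TDCIPP, 4.89 after 5-AzaC and 5.64 in DMSO, and a difference of 2.67 with an estimated error of 0.47.

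Both pairs called higher after 5-AzaC had intervals of unequal width. The first, on chromosome 7 from 55076778 to 55080602, had a level of 8.19 after 5-AzaC and 6.38 after TDCIPP, a difference of -1.81. The matching TDCIPP peak covers 1349 of the 3824 bp, and the DMSO level also dropped between the intervals, from 7.54 to 6.13. With that shift removed the difference was -0.40. The second, on chromosome 8 from 34791213 to 34793716, had levels of 7.43 and 5.71, and its difference of -1.72 became -0.48 in the same way, with DMSO levels of 6.84 and 5.60 in its intervals of 2503 and 848 bp. After this correction the approximate test called 117 pairs higher after TDCIPP, 115 of them among the 133, and 0 higher after 5-AzaC, where 55 had an unadjusted p under 0.05.

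Many peaks that were higher after TDCIPP lay side by side. Runs were defined as consecutive pairs at least 2-fold apart in 1 direction, each up to 100 kb from the next, with no 2-fold pair of the opposite direction between them. There were 40 runs of 5 or more pairs higher after TDCIPP, which held 412 pairs, and 0 such runs higher after 5-AzaC, where the longest had 3 pairs. With gaps of up to 10 kb there were 17 runs and 0. Single pairs made up 56.8% of the 2-fold pairs higher after TDCIPP and 85.7% of those higher after 5-AzaC. A direction with more pairs forms longer runs for that reason too, and the 2 directions start from 13.3% and 3.38% of all pairs. The runs were chosen on the difference, so their sizes are given as a description.

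**Figure D2:**
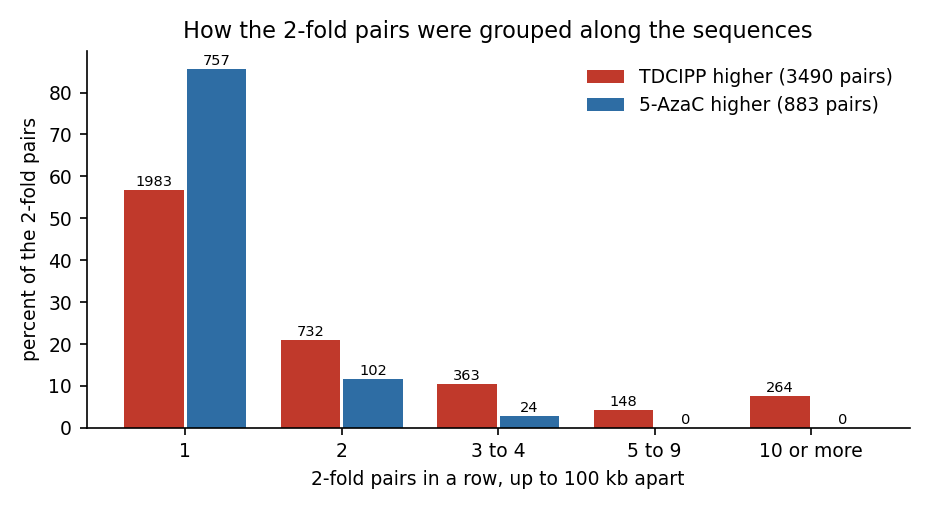
Percent of the pairs at least 2-fold apart that stood alone or in rows of increasing length, for pairs higher after TDCIPP (red, 3490 pairs) and higher after 5-AzaC (blue, 883 pairs); numbers on the bars are pairs. Rows of 5 or more pairs held 412 pairs higher after TDCIPP (11.8%) and 0 higher after 5-AzaC.

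The longest run covered 241 kb of chromosome 15, from 9635034 to 9876384, and held 44 pairs, all of them at least 2-fold higher after TDCIPP. Levels there ran from 4.59 to 7.70 after TDCIPP (median 7.22), from 3.22 to 5.31 after 5-AzaC (median 4.77) and from 3.73 to 6.34 in DMSO (median 5.32). Differences lay between 1.37 and 2.95 with a median of 2.47, and 39 of the 44 passed the approximate test. The run was chosen on the same difference that the test uses. By the sign of the change in the authors' deposited tables, TDCIPP was above DMSO at 44 of the 44 and 5-AzaC below it at 44. Over all pairs the 5-AzaC change had a median of -0.74 and an upper quartile of -0.39. A 5-AzaC level below DMSO was therefore not particular to this or the other runs. Over the 412 pairs in runs the median change was -0.72 for 5-AzaC. For TDCIPP it was 0.995, against -0.58 over all pairs. Within 100 kb outside the run, the 2 other pairs had differences of -0.85 and -0.04. A pair at least 2-fold higher that close joins the run, unless a 2-fold pair of the opposite direction lies between. Lower flank values therefore follow largely from the rule, here and for the runs below.

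A second run on chromosome 15, from 7196813 to 7276775, held 17 pairs with a median of 2.07 and a narrow range of 1.56 to 2.40. Its median levels were 7.56 after TDCIPP, 5.39 after 5-AzaC and 6.04 in DMSO. On chromosome 25, from 18695995 to 18878391, 21 of 21 pairs were in a run with differences of 1.14 to 2.32. There the medians were 6.81 after TDCIPP, 5.01 after 5-AzaC and 5.85 in DMSO, and the DMSO level lay between the compounds at 21 of 21 pairs by the signs in the authors' deposited tables. The 4 flanking pairs had a median of -0.43.

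The run on chromosome 8, from 34434161 to 34767644, was mixed. It held 20 pairs at least 2-fold higher after TDCIPP among 29, with a median of 1.65 over all 29 and a range of -0.77 to 2.34. Median levels over the 29 were 7.59 after TDCIPP, 5.97 after 5-AzaC and 6.45 in DMSO, while the 7 flanking pairs had a median difference of -0.48. A run on 1 alternate-locus sequence of the same chromosome had similar levels, with 15 of 18 pairs at least 2-fold higher, medians of 7.90, 6.04 and 6.50, and a median difference of 1.88. On chromosome 13, from 25313356 to 25361463, 11 of 11 pairs were 2-fold higher, and the TDCIPP levels of the 11 spanned only 6.55 to 6.81.

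Across the 40 runs, medians of the difference over all pairs within the span of a run went from 1.01 to 2.47. In 11 runs every such pair was at least 2-fold apart. On assembled chromosomes there were 27 runs, spread over 14 chromosomes, and 13 lay on alternate-locus sequences. An alternate-locus sequence gives another version of a chromosome region, so the 40 runs and their 412 pairs may count some loci more than once. Whether any did was not tested. The median DMSO level lay between the compounds in 37 runs and above both in 3. Pairs in runs had median levels of 5.49 after TDCIPP, 3.81 after 5-AzaC and 4.64 in DMSO, above the medians of all pairs. Of the 412 pairs, 119 (28.9%) passed the approximate test, so that 119 of all 133 calls lay in runs. Runs and test both use the same difference, so this overlap is no separate support for the runs. The estimated error was also smaller in runs, with a median of 0.63 against 0.83 at other pairs. The 64 pairs in runs with identical ends had a median difference of 1.53. Each is at least 2-fold higher by the run rule, so this median could not lie under 1. Over all pairs with identical ends within the span of a run, medians went from 0.19 (2 pairs, chromosome 8) to 2.69 (1 pair, an alternate sequence of chromosome 1). With the interval shift removed there were again 40 runs. In the 35 runs with pairs in the flanking 100 kb, the median of the flank medians was 0.12, with a range of -1.15 to 1.02. The run rule itself keeps most flank pairs under 2-fold, so these values mark no boundary.

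Runs of 3 were the longest for 5-AzaC, and there were 8 of them. The 3 whose pairs had the largest median difference follow. On chromosome 7, from 8567961 to 8596315, the 3 pairs had median levels of 2.04 after 5-AzaC, -0.06 after TDCIPP and 2.76 in DMSO, with differences of -2.56 to -1.36. On chromosome 1, from 25696756 to 25784329, the medians were 2.75, 0.80 and 3.51, with differences of -2.15 to -1.04. On chromosome 21, from 19016949 to 19071799, the 3 pairs stood among 5 whose median levels were 2.79, 1.62 and 3.15 and whose median difference was -1.05. In these 3 regions the DMSO median was above both compounds, as it was over all pairs, and 0 of their pairs passed the approximate test. By the signs in the authors' deposited tables, 5-AzaC was below DMSO at 3 of 3 pairs in the first and second runs but at 1 of 3 on chromosome 21. Among the other runs of 3, 1 on chromosome 3 from 23668780 stood among 6 pairs. The median DMSO level of the 6 was 2.28, between 1.95 after TDCIPP and 2.91 after 5-AzaC. Another, on chromosome 16 from 20723156, stood among 5 pairs with higher levels. Medians of the 5 were 3.89 after 5-AzaC, 2.76 after TDCIPP and 4.17 in DMSO.

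**Figure D3:**
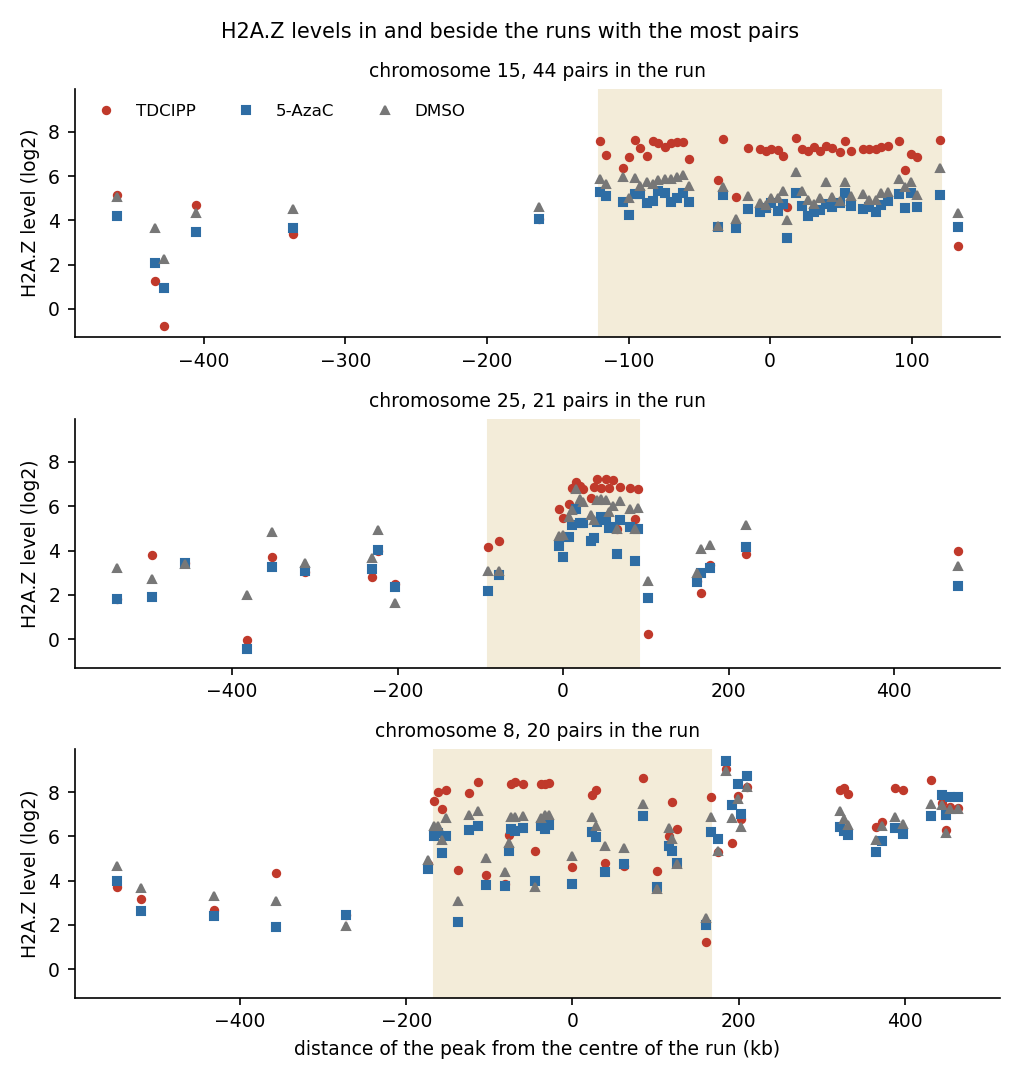
H2A.Z levels (log2 of normalised reads) of matched peaks after TDCIPP (red circles), after 5-AzaC (blue squares) and in DMSO (grey triangles), against the distance of the peak from the centre of the 3 runs with the most pairs, which are shaded. In the chromosome 15 run the TDCIPP levels (median 7.22) lie above both other groups at each of the 44 pairs, and at the flanking pair within 100 kb to its right the TDCIPP level is the lowest of the groups.

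Neighbouring peaks moved together at short range also outside these runs. The Pearson r of the differences at consecutive pairs was 0.34 at gaps under 2 kb (466 neighbours), 0.59 at 2 to 5 kb (1328), 0.29 at 5 to 10 kb and 0.14 at 10 to 30 kb. Beyond 30 kb it was at most 0.06. With the pairs in runs left out, the first 4 values were 0.22, 0.29, 0.22 and 0.10. Neighbours share libraries and local sequence, and these values carry no test. In windows of 1 Mb with at least 10 pairs (1101 windows), medians ran from -0.56 to 2.41. A median of at least 0.5 occurred in 68 windows and one of -0.5 or lower in 2.

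The balance between the compounds also differed by kind of sequence. Besides its 25 chromosomes, the GRCz11 assembly holds alternate-locus sequences, which give other versions of regions already present on a chromosome, and unplaced sequences. At the 4043 pairs on alternate-locus sequences the median difference was 0.35 (quartiles -0.08 and 0.86), and 20.6% were at least 2-fold higher after TDCIPP against 2.99% after 5-AzaC. On assembled chromosomes (21731 pairs) the median was 0.04, with 11.9% and 3.42%. Median levels on the alternate sequences were 3.19 after TDCIPP, 2.77 after 5-AzaC and 3.59 in DMSO. Among identical ends the medians were 0.28 and 0.01 (784 and 4453 pairs).

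The alternate sequences were above their own assembled chromosome on 25 of 25 chromosomes, by 0.11 to 0.46. Medians on the assembled chromosomes ran only from -0.05 to 0.11, whereas those of their alternates ran from 0.13 to 0.54. Among identical ends, with 4 to 64 alternate pairs per chromosome, the alternates were higher on 23 of 25. The contrast also held at matched DMSO levels: in the weakest of 5 groups of DMSO level the medians were 0.44 on alternates and 0.24 on chromosomes, and in the strongest 0.26 and -0.05. Of 77 alternate sequences with at least 10 pairs, 59 had a median above that of all pairs, 7 had a median of at least 1, and 0 had one of -1 or less. Without those 7 sequences (112 pairs) the median on alternates was 0.33. How reads that match both an alternate sequence and its chromosome were placed is not given in the sources used here.

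**Figure D4:**
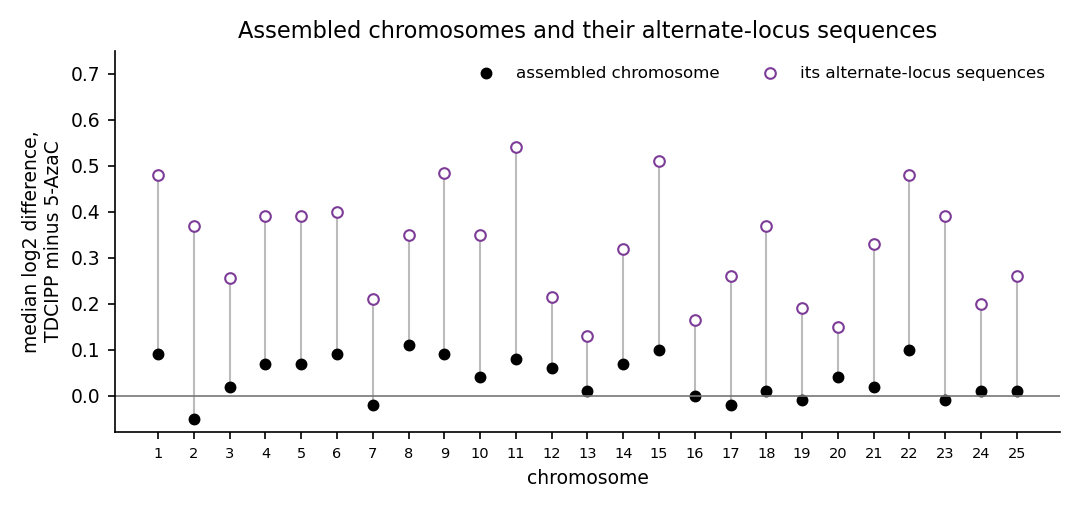
Median log2 difference in H2A.Z, TDCIPP minus 5-AzaC, on each of the 25 assembled chromosomes (filled) and on the alternate-locus sequences that belong to it (open, 44 to 399 pairs each). The open point lies above the filled one on 25 of 25 chromosomes.

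The long arm of chromosome 4 is the largest block of heterochromatin in the zebrafish genome, rich in repeats and poor in ordinary protein-coding genes. Its 472 pairs (from 25 Mb on) had a median difference of 0.28, with 24.4% at least 2-fold higher after TDCIPP and 4.03% higher after 5-AzaC. The rest of chromosome 4 (424 pairs) had a median of -0.06, with 6.37% and 2.59%. Median levels on the long arm were 3.25 after TDCIPP, 2.68 after 5-AzaC and 3.25 in DMSO. The median change from DMSO there was -0.035 for TDCIPP and -0.56 for 5-AzaC, against -0.58 and -0.74 over all pairs. Over these 472 pairs, the change that departed most from that of all pairs was thus that of TDCIPP. The arm was also weaker in DMSO than all pairs (3.25 against 3.82), and it was not compared at matched DMSO levels. The 81 pairs of the arm with identical ends had a median difference of 0.18. Their median levels were 2.72 after TDCIPP, 2.33 after 5-AzaC and 3.34 in DMSO, so both compounds were below DMSO. Their median change from DMSO was -0.66 for TDCIPP and -0.92 for 5-AzaC. Over all pairs with identical ends it was -0.80 and -0.87, so the departure of TDCIPP was smaller here. The 387 pairs on unplaced sequences had a median of 0.11, but -0.07 over the 58 with identical ends.

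The median difference was highest at peaks that were weak in DMSO and at narrow peaks. The DMSO level shares no library with the difference. Over 5 equal groups of DMSO level, from weakest to strongest, the median difference was 0.28, 0.16, 0.08, 0.01 and -0.02. Presence in both tables may still depend on treated libraries, above all at peaks weak in DMSO. The median change from DMSO was -0.02 for TDCIPP and -0.33 for 5-AzaC in the weakest group, and -0.87 and -0.91 in the strongest. Each change subtracts the DMSO level that orders the groups, so its fall from weak to strong can follow from the ordering itself. The share at least 2-fold higher after TDCIPP was 21.1% in the weakest and 9.31% in the strongest, and the share higher after 5-AzaC was 4.40% and 1.40%, so that 2-fold pairs were mostly higher after TDCIPP in both. With identical ends the medians ran from 0.17 to -0.03. Across all pairs, Spearman's rho of the difference with the DMSO level was -0.13. Ordered by the mean level of both treated groups, which shares libraries with the difference, the direction turned. The rho was then 0.10, the median difference was 0.00 in the weakest group and 0.10 in the strongest, and the 2-fold shares were 10.7% higher after TDCIPP and 10.3% after 5-AzaC in the weakest, against 17.0% and 0.497% in the strongest.

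Width, taken here from the 5-AzaC peak of each pair, gave a similar order. The narrowest of 5 groups, 244 to 551 bp, had a median difference of 0.33 with 22.5% at least 2-fold higher after TDCIPP, and the other groups had medians of 0.10, 0.04, 0.00 and -0.02. Among identical ends the narrowest group had 0.19 and the other medians lay between -0.03 and 0.03. Over all pairs with the interval shift removed, the narrowest and widest groups had 0.30 and 0.03. With linear levels divided by interval width they had 0.23 and 0.11, so the contrast shrank. Narrow peaks are also weak peaks, with a rho of 0.64 between width and DMSO level. Within each group of DMSO level, without correction for interval, the narrowest peaks had a higher median than all other widths together. It was 0.40 against 0.13 in the weakest and 0.07 against -0.03 in the strongest, which held only 69 narrow pairs. Against the widest peaks alone the gap was small in the second group, 0.30 against 0.23.

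**Figure D5:**
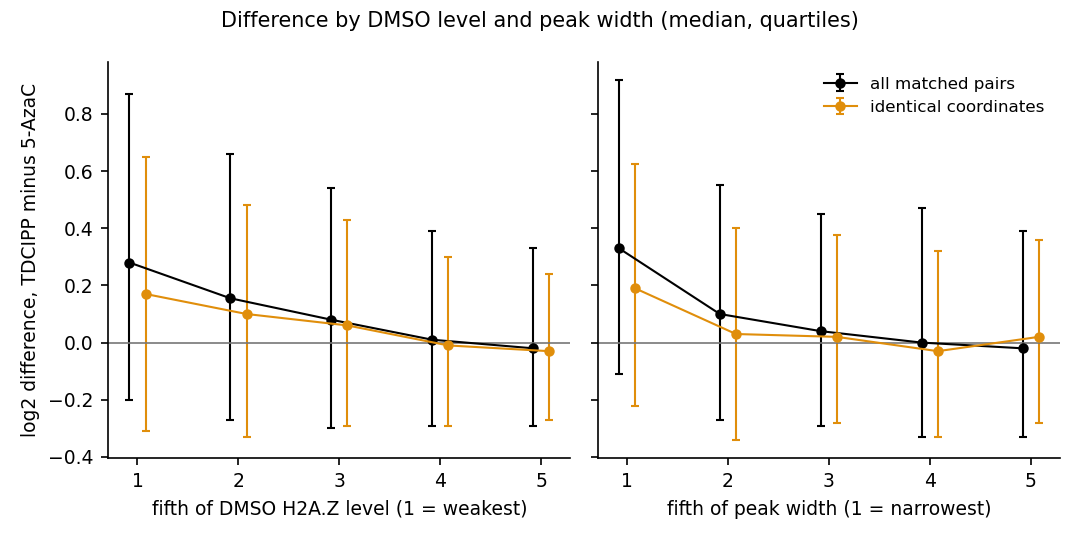
Median log2 difference in H2A.Z, TDCIPP minus 5-AzaC, in 5 equal groups of DMSO level (left) and of the width of the 5-AzaC peak (right), with bars from the lower to the upper quartile over peaks, for all matched pairs (black) and identical coordinates (orange). The median falls from 0.28 to -0.02 across DMSO levels and from 0.33 to -0.02 across widths, and the quartile ranges of all groups overlap.

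The 261 pairs with the highest DMSO level (6.53 and above) had a median difference of -0.18, with quartiles of -0.45 and 0.16. Of these pairs, 32 (12.3%) were nonetheless at least 2-fold higher after TDCIPP and 9 after 5-AzaC, and 30 lay in runs. The set carried 11.7% of the TDCIPP signal and 15.0% of the 5-AzaC signal over all pairs. Of the 10 strongest pairs, 9 were higher after 5-AzaC and the tenth was equal, with differences of -0.59 to 0 against estimated errors of 0.41 to 0.71. The strongest, on chromosome 7 from 53011132 to 53015216, had a level of 10.46 after TDCIPP, 10.97 after 5-AzaC and 10.37 in DMSO. Of the 10, 0 were 2-fold apart and 0 passed the approximate test. Each of these differences was smaller than 2 estimated errors.

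Set beside DMSO, the pairs that separated the compounds fell into unlike patterns. Both comparisons with DMSO share the control libraries, and the pairs were chosen on the TDCIPP and 5-AzaC levels, so the following are values side by side and no test. At the 3490 pairs higher after TDCIPP, median levels were 4.15 after TDCIPP, 3.41 in DMSO and 2.57 after 5-AzaC, and the median change from DMSO in the authors' deposited tables was 0.61 for TDCIPP and -0.85 for 5-AzaC. In those tables, at an FDR under 0.05, TDCIPP was higher than DMSO at 284 of them (8.14%, against 1.14% of all pairs) and lower at 0, and 5-AzaC was lower at 431 (12.3%, against 14.2% of all pairs) and higher at 0. The 5-AzaC shares are limited by which peaks could be called. An FDR under 1 was given for 5-AzaC to 57.9% of this set and 73.8% of all pairs. For TDCIPP it was given to 71.2% and 64.5%. At the 883 pairs higher after 5-AzaC, median levels were 1.44 after TDCIPP, 2.76 after 5-AzaC and 3.43 in DMSO. The median changes in the authors' deposited tables were -1.85 for TDCIPP and -0.69 for 5-AzaC, both below DMSO. Over all pairs they were -0.58 and -0.74, so both were below DMSO there too. In the same deposited tables TDCIPP was lower at 175 of them (19.8%, against 6.42% of all pairs), and 5-AzaC was lower at 69 (7.81%, against 14.2% of all pairs) and higher at 8 (0.906%, against 0.31% of all pairs). Of this set, 33.5% had a level under 1 in at least 1 treated group, against 3.44% of all pairs. For TDCIPP, the authors' deposited table gave an FDR under 1 to 30.4% of this set, against 64.5% of all pairs, and a peak with an FDR of 1 could not be called. For 5-AzaC the shares were 65.5% and 73.8%.

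Single peaks show both patterns. Among the 1273 pairs with identical ends and a level of at least 4 after either compound, the 10 with the largest excess after TDCIPP differed by 2.28 to 2.73, and DMSO lay between the compounds in 10 of 10. The largest was on an alternate sequence of chromosome 6, with levels of 5.02 after TDCIPP, 3.63 in DMSO and 2.29 after 5-AzaC (difference 2.73, estimated error 0.82), which did not pass the approximate test. On chromosome 15, from 7205646 to 7206289, inside the second run of that chromosome, the levels were 7.48, 5.84 and 5.17 (difference 2.31, estimated error 0.50). On chromosome 13, from 25322699 to 25324075, also within a run, they were 6.72, 5.63 and 4.43 (difference 2.29, estimated error 0.50). These were the 2 of the 10 that passed the approximate test.

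The 10 with the largest excess after 5-AzaC differed by only 0.91 to 1.35, and DMSO was above both compounds in 10 of 10. Over all pairs with identical ends the median change from DMSO was -0.80 for TDCIPP and -0.87 for 5-AzaC. Levels below DMSO after both compounds were therefore not particular to these 10. The largest, on chromosome 5 from 20813873 to 20815114, had levels of 4.52 after 5-AzaC, 3.17 after TDCIPP and 5.19 in DMSO (difference -1.35, estimated error 0.61). In the authors' deposited tables this peak changed by -2.02 after TDCIPP (FDR 0.00197) and by -0.67 after 5-AzaC (FDR 0.165). Of the 10, 0 passed the approximate test.

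The 5 largest differences each way over all pairs had a level under 1 after 1 of the compounds. The largest difference, 4.29, was on an alternate sequence of chromosome 14, with 4.07 after TDCIPP and -0.22 after 5-AzaC, but the TDCIPP peak is wider and the DMSO levels of its intervals were 3.90 and 2.82. The most negative, -3.45, was on chromosome 7 from 7539871 to 7540464, with -1.38 after TDCIPP, the lowest level of that table, 2.07 after 5-AzaC and 2.81 in DMSO. Its estimated error was 1.54.

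Peaks without a partner were few, weak and narrow. The 5-AzaC table had 3693 of them (12.4%) with a median width of 539 bp and a median level of 2.07 after 5-AzaC and 2.21 in DMSO. The TDCIPP table had 2827 (9.75%) with a median width of 529 bp and a median level of 2.44 after TDCIPP and 2.02 in DMSO. In the authors' deposited tables their median change from DMSO was -0.18 for 5-AzaC and 0.42 for TDCIPP, against -0.74 and -0.58 at matched peaks. The tables share the DMSO libraries, so a peak in 1 table only may have entered it through the treated libraries. That favours higher treated levels, and these changes are no separate result. Of the unpaired TDCIPP peaks, 20.3% lay on alternate-locus sequences, against 15.5% of the matched pairs and 15.8% of the unpaired 5-AzaC peaks.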

How the data were processed

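H2A.Z CUT&Tag values came from 2 tables of the authors, TDCIPP and 5-AzaC each against DMSO, with 1 row per consensus peak. Per the file headers, the authors deposited a log2 level per group, a log2 change, a p-value and an FDR. The submitters' processing notes name Bowtie2, Picard, MACS2, deepTools, DiffBind and the GRCz11 build, with no roles; parameters, scaling and test are not given in the sources used here. Sequencing depth per library is unknown, and a start may count from 0 or from 1, which no header states.

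Peaks were matched by mutual best overlap of at least 1 bp. Differences are TDCIPP minus 5-AzaC group levels, 2 against 3 samples. Since no value per sample is held, replicate spread entered only through the deposited p-values, and depends on the authors' test: each change from DMSO was divided by the standard normal quantile of its two-sided p to give its error. For changes under 0.5 or p over 0.5, the median error of the peak's bin among 50 bins of level was used, which is no limit for a single pair. The error of the difference was the root of both summed squares, which counts DMSO error 2 times. A two-sided normal test with Benjamini-Hochberg adjustment over 26161 pairs followed (alpha 0.05). It was tried on simulated tables with independent peaks, normal errors and p-values from the same normal formula. That trial checks the calculation and cannot show how the test behaves on these data. P-values of the test rest on the estimated error and are no direct measure of the spread between the TDCIPP and 5-AzaC samples. The spread behind the deposited p-values may be technical. Named peaks were the 10 largest differences each way among identical pairs with the higher level at least 4, the 3 runs with the most pairs each way, and, chosen after their values were seen, the other peaks and runs described, including the strongest peaks and the extremes. Members and rules were chosen with earlier results of these data known. No GRCz11 genome or annotation was used here, so promoters, gene lists and sequences were not analysed. Python 3.11.15, numpy 2.4.6, pandas 2.3.3, scipy 1.17.1 and matplotlib 3.10.9 were used.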

Additional observations from a re-analysis of the deposited data

How the results depend on the processing

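No paired analysis was possible because the tables hold 1 value per group; for the same reason no replicate could be left out. The promoter comparison was not run. Of 148 alternative values of 36 results, 110 stayed within the limits set for a change and 38 moved further. Limits were 1.5 times for counts and 0.1 for values. Counts among identical ends were judged as shares of their pairs, so 203 of 5295 (3.83%) counted as unmoved from 883 (3.38%). The 60 alternative values of named peaks, of which 9 moved, had a wider limit near each pair's counting error. A shift from 2.73 to 2.507 thus counted as unmoved. No value past a test changed sign, but 3 values without a test did: the median with equal sums, unplaced sequences with identical ends, and the correlation with mean treated level. Corrections for interval, for runs and for the error of TDCIPP minus DMSO alone were added after seeing the data, and the cause of the moves was not tested.

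With equal sums over pairs the median difference was -0.143 and 1596 pairs were 2-fold higher after 5-AzaC. Identical ends gave 463 pairs 2-fold higher after TDCIPP and a median on unplaced sequences relative to all pairs of -0.11. A 1.5-fold limit gave 6296 pairs higher after TDCIPP and 2829 after 5-AzaC, and a 4-fold limit 564 and 78. Of pairs higher after 5-AzaC, 349 had a level of at least 3 and 467 stayed 2-fold after adding 1 to linear levels. The approximate test called 4 pairs higher after TDCIPP and 0 after 5-AzaC among identical ends, with 149 and 22 at an unadjusted p under 0.05, and also 4 and 0 when centred on the median. With the error of TDCIPP minus DMSO alone it called 1074 and 14 (centred, 865 and 19). The count for 5-AzaC was 4 with bin errors, 1 with the larger error and 1 at an adjusted p under 0.01, centred or not, 0 after the interval correction and 1 per base. The centred count for TDCIPP at that stricter limit was 61. The Spearman correlation across peaks of the difference with the mean treated level was 0.098, of opposite sign to that with the DMSO level; the former shares libraries with the difference. A gap limit of 10 kb left 17 runs. The groups held only 2 and 3 samples. With the main estimated error, no difference under 1.58 was called among pairs higher after TDCIPP. What set that value was not tested.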
